A study of Mus musculus with 2 samples.

Results

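The set is made of 9 genes for secreted regulators of Wnt signalling, chosen by name from the 31253 features of the tables. They are the R-spondin gene Rspo4 and the antagonist genes Frzb, Sfrp1, Sfrp2, Sfrp5, Dkk1, Wif1, Notum and Sostdc1. Each symbol matched 1 feature, and all 9 had UMIs (unique molecular identifiers, each standing for 1 captured transcript) in both libraries. Molar tooth germs from the lower jaw of newborn C57BL/6 mice were dissociated into single cells, whose transcripts were captured in BD Rhapsody microwells and sequenced. The control group was Edarfl/fl, with the floxed Edar allele and no Cre. The deletion group was K14cre;Edarfl/fl, in which Cre is driven in keratin 14-expressing epithelium on the same floxed allele. Edar is the epithelial receptor of ectodysplasin, and in this design the mesenchyme of both groups keeps its Edar alleles apart from any Cre activity outside epithelium, which was not measured. Each group was 1 library, so no difference below has a replicate check and no p-value was computed.

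Wnt proteins act on cells through Frizzled receptors and the co-receptors Lrp5 and Lrp6. R-spondins bind Lgr receptors and hold back Znrf3 and Rnf43, which remove Frizzled from the cell surface, so they raise the response to Wnt. The antagonists act at different steps: Frzb, the Sfrp proteins and Wif1 bind Wnt itself, Dkk1 and Sostdc1 bind the Lrp co-receptors, and Notum is an enzyme that removes the lipid that Wnt needs. Sostdc1, also called ectodin or Wise, binds BMP proteins as well and is known from mouse teeth as a regulator of cusp and tooth number. In the tooth germ, epithelium gives rise to enamel-forming ameloblasts, and the dental papilla gives rise to dentin-forming odontoblasts and the pulp. The dental follicle surrounds the germ.

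Of the 9 genes, 6 had an entry in the RefSeq promoter table (GRCm38.p6), and the missing entries are Sfrp1, Notum and Sostdc1. The 250 bases before the RefSeq start are shown for Dkk1 and Rspo4, the genes with the most different levels between the libraries in the sub-cluster M4 described below and in mesenchyme as a whole. Sequences run 5′ to 3′ on the gene's strand, and capitals mark matches to the 4 TCF/LEF core words CTTTGAA or CTTTGAT or CTTTGTA or CTTTGTT, and to the TATA box word TATAAA. TCF/LEF proteins are the DNA-binding partners of beta-catenin in the Wnt pathway.
Dkk1 (chr19:30549497-30549746, minus strand): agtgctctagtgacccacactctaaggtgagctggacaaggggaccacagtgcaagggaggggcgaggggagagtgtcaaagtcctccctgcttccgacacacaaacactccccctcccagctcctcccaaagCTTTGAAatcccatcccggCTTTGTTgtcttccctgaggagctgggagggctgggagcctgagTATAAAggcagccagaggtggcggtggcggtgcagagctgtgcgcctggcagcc
Rspo4 (chr2:151842677-151842926, plus strand): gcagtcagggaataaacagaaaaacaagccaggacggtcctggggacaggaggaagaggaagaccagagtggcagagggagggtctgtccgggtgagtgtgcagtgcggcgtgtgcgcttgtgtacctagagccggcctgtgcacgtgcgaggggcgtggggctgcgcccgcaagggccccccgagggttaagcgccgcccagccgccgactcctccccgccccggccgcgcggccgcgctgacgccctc
The Dkk1 window held CTTTGAA beginning at base -117 and CTTTGTT at -98, both on the gene's strand, and TATAAA at -54. GENCODE M21 places the Dkk1 start 169 bases further upstream, so these words lie within its transcript model. None of these words was in the Rspo4 window on either strand. With both strands searched, at least 1 TCF/LEF word stood in 14.9% and TATAAA in 12.3% of 32536 windows of the same length. Among the other 4 windows the only match was TATAAA at -232 of Wif1, on the opposite strand. A match is a description of letters and not of binding.

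The control library held 13253 cells and the deletion library 15247 after filtering, with medians of 4444 and 3329 UMIs per cell. The 9 genes were kept out of the clustering, so that no cluster was defined by them. Classes and subtypes were named from marker genes, and a name ends in "-like" for that reason. Mesenchyme-like cells (8493 and 11012 in the control and deletion libraries) fell into 11 sub-clusters, M0 to M10, and epithelium-like cells (2265 and 1883) into 9, E0 to E8. Edar, measured as a check of the labels, had 34.8 CPM (its UMIs scaled to 1e+06 UMIs of the same cells) in control epithelium-like cells and 21.2 CPM in those of the deletion library, from 360 and 145 UMIs. The tags of this assay need not lie in the deleted part, so the remaining level checks little.
Both libraries held cells of both sexes and therefore of more than 1 pup. Among mesenchyme-like cells, 1879 control and 3576 deletion cells had Xist UMIs and no Y-linked UMI, and 3373 and 2863 had the reverse. These 2 cell sets come from different pups within each library, so levels in them are given beside many of the differences between libraries. They are not given for the genes of the lists described last. That split was added after the data were seen.

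The genes differed in how broad their source was, and for 8 of the 9 genes the highest sub-cluster was the same in both libraries, Sostdc1 being the exception. Over all kept cells, 97.8% to 99.0% of the control UMIs of Rspo4, Frzb, Sfrp1, Sfrp2, Dkk1, Wif1 and Notum came from mesenchyme-like cells, counting 7 genes. Sostdc1 was shared, with 66.2% from mesenchyme and 33.0% from epithelium in control cells, and 71.8% and 26.4% after deletion. Sfrp5 was mainly epithelial, with 84.7% and 57.3% of its UMIs from epithelium-like cells. Endothelium-like cells, which should lack most of these transcripts, give the level of free RNA: after each cell was thinned to 2000 UMIs, 0.225% and 0.448% of them held an Rspo4 UMI and 0.899% and 0.448% a Dkk1 UMI. Their median depths before thinning were 2970 and 2810 UMIs, against 4778 and 3388 in mesenchyme-like cells. In the same thinned data, 9.94% and 18.7% of mesenchyme-like cells held Rspo4 and 21.2% and 11.6% Dkk1. Without thinning these shares were 18.7% and 24.7% for Rspo4 and 36.9% and 18.3% for Dkk1.

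**Figure D1:**
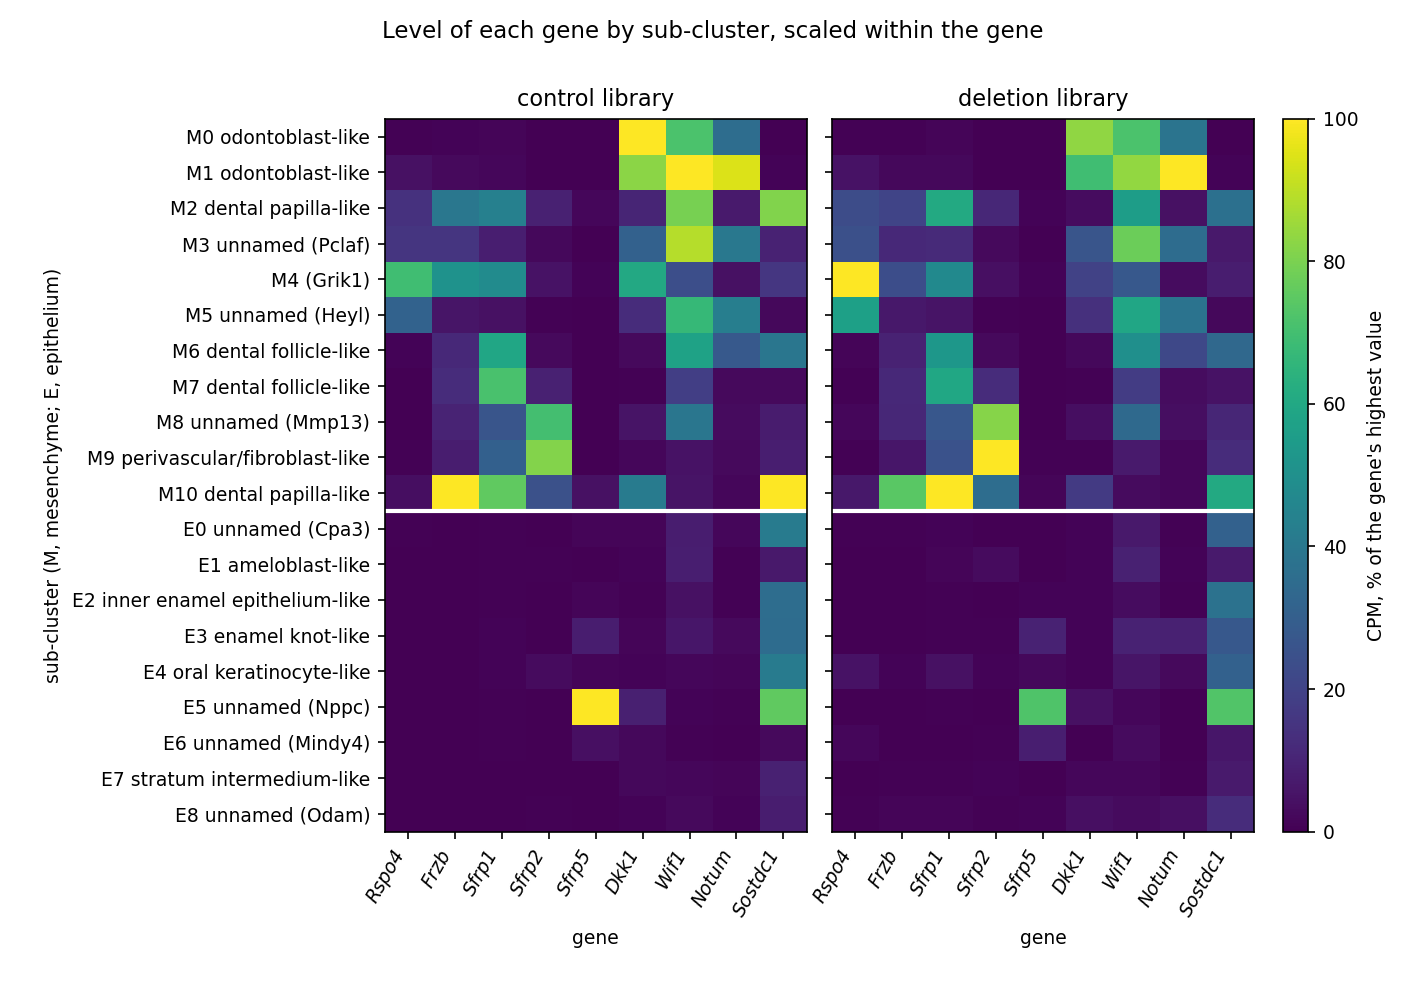
Level of each of the 9 genes (columns) in each mesenchymal (M) and epithelial (E) sub-cluster (rows) in the control and deletion libraries, coloured by CPM as a percentage of the gene's own highest value. Odontoblast-like rows M0 and M1 are bright for Dkk1 and Wif1, M1 for Notum, and M4 and M5 for Rspo4. Papilla-like M10 is bright for Frzb, Sfrp1 and Sostdc1, M8 and M9 for Sfrp2, and E5 for Sfrp5.

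Rspo4, the activator of the set, was highest in M4, a sub-cluster led by Grik1, Nell2 and Brinp1. M4 had its highest marker score for dental papilla, but its counterparts led by Grik1 and Nell2 had no marker score above 0 in a finer clustering (resolution 1) or with the 9 genes kept in the clustering. It is therefore called by its number. M2 and M10 were named papilla-like in all 3 clusterings, and M1 lost the name odontoblast-like in the finer one. The control level of Rspo4 in M4 was 393 CPM (95% Poisson interval 369 to 418, 1013 UMIs), and the level after deletion was 566 CPM (548 to 586, 3446 UMIs). The next sub-cluster was M5 (unnamed, led by Heyl, Vdr and Slc20a2) with 179 and 321 CPM. Cycling cells of M3 (led by Pclaf, Ube2c and Cenpa) followed with 86.7 and 139 CPM, and papilla-like M2 with 80.1 and 132 CPM, so that M3 and M2 did not differ beyond their counting intervals. Follicle-like M6 and M7 were at or below 6.86 CPM in both libraries, and epithelium-like cells at 1.26 and 4.69 CPM, next to 1.35 and 3.48 CPM in endothelium-like cells. Over all cells of each sub-cluster, the log2 ratio of CPM + 5, deletion over control, was 0.52 in M4, 0.83 in M5, 0.65 in M3 and 0.69 in M2, and none passed the 2-fold rule described below. In cells with UMIs of Y-linked genes and none of Xist, Rspo4 was higher in the deletion library in all 4, with 398 and 611 CPM in M4, 186 and 378 CPM in M5, 94.4 and 223 CPM in M3, and 77.1 and 146 CPM in M2. In cells with Xist UMIs alone the levels were 374 and 318 CPM in M4, 136 and 153 CPM in M5, 66.6 and 61.0 CPM in M3, and 74.5 and 47.3 CPM in M2, and the intervals of the libraries overlapped in each. Rspo4 overlaps the antisense gene Rspo4os, Sfrp2 overlaps Gm26771, and Notum overlaps Myadml2os and Notumos. Whether the counting used strand is not given in the sources used here, so reads of these partners cannot be told apart.

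The Wnt-binding antagonists had overlapping sources in the mesenchyme. Frzb was highest in papilla-like M10 (led by Gria1, Upp1 and Fst), with 1551 CPM (1471 to 1634) in control cells and 1157 CPM (1043 to 1280) with the deletion. M4 had 791 and 367 CPM and M2 616 and 318 CPM of Frzb. Odontoblast-like M0 had 13.3 and 7.45 CPM, the lowest Frzb levels in mesenchyme.
Sfrp1 was broad in papilla and follicle. In M10 it stood at 1091 and 1443 CPM. Follicle-like M7 (led by Pappa2, Cyp26b1 and Chodl) followed at 1026 and 861 CPM, and follicle-like M6 (led by Moxd1, Igfbp5 and Hsd11b2) at 855 and 762 CPM. In the control, the intervals of M10 (1024 to 1161) and M7 (985 to 1069) overlapped, so their order is not settled there, and in the deletion library M10 was clearly above (1316 to 1580 against 835 to 887). Odontoblast-like M0 and M1 lay between 19.2 and 32.3 CPM of Sfrp1. Outside the mesenchyme, glia-like cells had 483 and 561 CPM, from 38 control and 98 deletion cells, too few in the control for a comparison between libraries.
Sfrp2 was highest in M9, named perivascular or fibroblast-like (led by Mfap5, Eln and Agtr2), with 1152 and 1415 CPM, and in M8 (unnamed, led by Mmp13, Mmp9 and Spp1), with 992 and 1156 CPM. Odontoblast-like M0 and M1 had 3.22 CPM or less. Wif1 had the opposite bias, with 1277 and 1071 CPM in odontoblast-like M1, 1132 and 989 CPM in cycling M3 and 917 and 915 CPM in odontoblast-like M0, but only 60.8 and 91.7 CPM in M9. It was also present in papilla-like M2 (1013 and 712 CPM) and follicle-like M6 (736 and 637 CPM). In epithelium Wif1 was weaker, at 64.6 and 66.2 CPM in the class as a whole. It was at 107 and 119 CPM in ameloblast-like E1, 103 and 86.3 CPM in E0, and 78.6 and 121 CPM in E3. A Wif1 UMI was found in 11.4% and 10.3% of thinned epithelium-like cells, against 2.92% and 3.59% of endothelium-like cells and 6.52% and 7.53% of mural-like cells. Mural-like cells had 51.1 and 55.2 CPM of Wif1, with intervals that overlapped those of epithelium-like cells. The level of epithelium-like cells as a whole was therefore not clearly above that of mural-like cells. Ameloblast-like E1 was above mural-like cells in both libraries. Its intervals were 92.4 to 123 and 97.3 to 143 CPM, against 39.7 to 64.7 and 41.4 to 72.0 CPM. Intervals overlapped for E0 in the deletion library and for E3 in the control.

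Sfrp5 was the 1 member with a mainly epithelial source. Its highest level was in E5 (unnamed, led by Nppc, Aldh1a3 and Gm30648), with 217 CPM (183 to 257, 139 UMIs) in control cells and 157 CPM (115 to 210, 46 UMIs) with the deletion. These intervals overlap, and the E5 cells numbered 87 and 62. Only 3 control but 31 deletion E5 cells had Xist only, and 48 and 8 had Y-linked UMIs only. Sfrp5 was at 0 and 175 CPM in these Xist cells and at 245 and 183 CPM in the Y-linked cells. Glia-like cells came next with 34.5 CPM (9.4 to 88.3, 4 UMIs) and 82.2 CPM (54.7 to 119, 28 UMIs), from few cells. Enamel knot-like E3 had 17.6 and 20.5 CPM (17 and 10 UMIs). Mesenchyme-like cells had 0.54 and 0.508 CPM, and endothelium-like cells had 0 UMIs in both libraries, which allows up to 0.676 and 0.95 CPM.

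Dkk1, the Lrp antagonist, was highest in the odontoblast-like sub-clusters M0 and M1. Notum, the Wnt deacylase, was highest in M1, but in the control its level in M0 was below those of M5 and M3. Dkk1 had 381 and 318 CPM in M0 (led by Dspp, Dmp1 and Mmp20) and 315 and 264 CPM in M1 (led by Sgms2, Grm4 and Ifitm5). In the control a further part of Dkk1 was in M4, with 229 CPM, and in papilla-like M10, with 159 CPM. Follicle-like M6 and M7 had 9.44 CPM or less. Notum had 686 CPM (671 to 701) and 722 CPM (703 to 742) in M1, and 257 and 277 CPM in M0. Notum was at 310 and 276 CPM in M5, at 290 and 255 CPM in M3 and at 202 and 156 CPM in M6, while M4 and M10 had 12.1 to 32.6 CPM. The 2 odontoblast-like sub-clusters thus differed in Notum, by more than the counting intervals in both libraries, and were nearer to each other in Dkk1.

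Sostdc1 was made on both sides of the epithelial and mesenchymal boundary. The highest control levels were in papilla-like M10 (1803 CPM, 1717 to 1893) and M2 (1463 CPM, 1404 to 1524), followed by epithelial E5 (1365 CPM, 1276 to 1459). In the deletion library E5 was highest (1313 CPM, 1185 to 1451), above M10 (1096 CPM, 985 to 1216) and M2 (669 CPM, 639 to 701), with the intervals of E5 and M10 overlapping slightly. Follicle-like M6 had 708 and 611 CPM. In epithelium, E0, E2, E3 and E4 lay between 493 and 753 CPM, and ameloblast-like E1 at 120 and 127 CPM. Odontoblast-like M0 and M1 were the low end, at 4.61 to 17.6 CPM. Outside both classes, glia-like cells had 207 and 426 CPM (24 and 145 UMIs), from 38 control and 98 deletion cells. E0 is unnamed because the mast cell genes Cpa3, Cma1 and Mcpt4 lead it.

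Across the 25 sub-clusters or clusters with at least 50 cells in each library, Frzb and Sfrp1 had the most similar profiles of the 36 pairs in the set, with a correlation of log2(CPM + 5) of 0.94 in each library. Wif1 and Notum followed with 0.88 and 0.84, and Sfrp1 and Sfrp2 with 0.85 and 0.79. Sostdc1 had no close partner in the set apart from Sfrp5 (0.50 and 0.48). These points share libraries and depth and are described only. Of 8314 genes compared by the same measure over both libraries, those nearest to Rspo4 were Plppr1 (0.94), Sall3 (0.91) and Olfml1 (0.90). Osr2 (0.94) was nearest to Frzb, Pax9 (0.95) to Sfrp1, Ogn (0.89) to Sfrp2, Gm30648 (0.82) to Sfrp5 and C1ql1 (0.86) to Dkk1. Sp7 (0.94), a transcription factor of bone- and dentin-forming cells, was nearest to Wif1, Smpd3 (0.88) to Notum and Serinc2 (0.89) to Sostdc1. Gm30648 was a leading gene of E5, and Smpd3, Ogn and Sp7 were fixed markers of odontoblast, dental follicle and osteoblast. These genes are therefore not independent of the sub-clusters or their names.

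Single cells of M2, M4 and M10 carried several of these transcripts together. Of the 9 genes, the median thinned cell held UMIs of 3 in M2, M4 and M10, and of 2 in odontoblast-like M0 and M1. At least 3 were found in 66.2% of control M4 cells and 50.7% of deletion M4 cells, in 71.7% and 58.8% of M2 cells, and in 37.2% and 36.0% of all mesenchyme-like cells. In epithelium-like cells that share was 0.404% and 0.889%. At full depth the M4 shares were 85.2% and 74.2%, and the mesenchyme-like shares 72.1% and 59.8%, where depth also differs between the libraries.

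**Figure D2:**
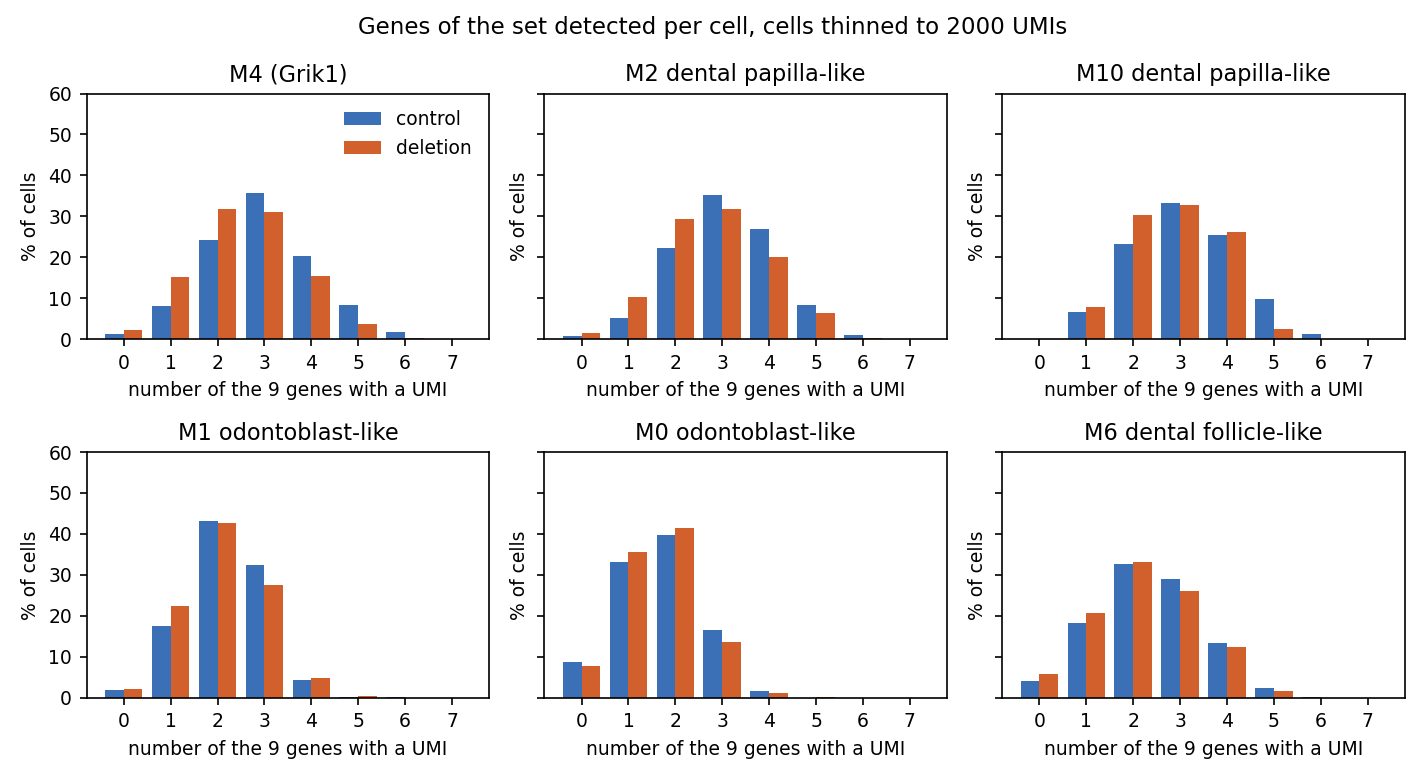
Number of the 9 genes with at least 1 UMI per cell (horizontal axis) against the percentage of cells (vertical axis) in 6 mesenchymal sub-clusters, for cells thinned to 2000 UMIs, with bars for the control and deletion libraries. In M4 and M2 the deletion bars are shifted towards fewer genes, with 50.7% and 58.8% of cells at 3 or more against 66.2% and 71.7% in the control.

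The activator and the antagonists met in the same M4 cells. Among thinned control M4 cells with Rspo4, 63.2% also held Frzb, 66.2% Sfrp1 and 30.5% Dkk1. Among M4 cells without Rspo4, the shares were 72.4%, 63.5% and 28.2%, so a cell with Rspo4 was not marked by more of these antagonists. In the deletion library 40.8% of Rspo4 cells held Frzb, 61.4% Sfrp1 and 9.13% Dkk1, against 47.1%, 64.2% and 13.4% of cells without Rspo4. Within M4, the clearest joint detection was that of Frzb with Sfrp1: 69.1% and 71.7% of Frzb cells held Sfrp1, against 55.7% and 55.4% of the others.
In odontoblast-like M1, Notum was found in 72.6% and 70.8% of Wif1 cells and in 71.4% and 72.6% of cells without Wif1. Notum was found in 74.3% and 75.4% of Dkk1 cells, against 71.2% and 68.6% of the rest. In papilla-like M2, Sostdc1 was found in 75.2% and 60.5% of Frzb cells, against 65.0% and 52.5% of cells without Frzb. Over all mesenchyme-like cells, Wif1 was found in 45.4% and 41.6% of Sfrp1 cells, against 72.0% and 63.6% of the others, and the sub-clusters highest in each gene differed as above. In E5, 18 of 21 control cells and 8 of 10 deletion cells with Sfrp5 also held Sostdc1.

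For the comparison of the libraries, a gene was tested where it had at least 50 CPM in 1 library. It was called higher or lower where CPM + 5 differed at least 2-fold and the 95% interval of the count ratio excluded 1. In mesenchyme-like cells 8 of the 9 genes were tested, and 1 was higher and 0 lower, beside 0.231% higher and 0.231% lower among all 3465 tested genes. The median log2 ratio of deletion over control was -0.10 for the 8 genes and 0.08 for all tested genes. The control level of Rspo4 was 58.5 CPM (56.3 to 60.7, 2814 UMIs) against 137 CPM with the deletion (133 to 140, 5910 UMIs), a log2 ratio of 1.16. Dkk1 stood at 194 CPM and 97.1 CPM, a log2 ratio of -0.96 just inside the rule. The others moved less, with 0.63 for Sfrp1, 0.64 for Sfrp2, -0.42 for Wif1, -0.47 for Notum, -0.11 for Frzb and -0.08 for Sostdc1. Fewer cells of a subtype and less RNA per cell both enter such class sums.

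The make-up of the class differed between the libraries. M0 and M1 were 13.4% and 18.6% of control mesenchyme-like cells but 4.07% and 11.8% of deletion cells, while M4 was 7.88% and 16.2% of cells and M7 5.92% and 12.7%. With every sub-cluster given the same weight in both libraries, the log2 ratio of Rspo4 was 0.61, no longer past the rule, and that of Dkk1 -0.51. Frzb (-0.53) and Sostdc1 (-0.58) were then lower, and Sfrp1 (0.08), Wif1 (-0.19) and Notum (-0.06) nearer to 0.
The difference in Rspo4 also ran in opposite directions in the Xist and Y-linked cells. In cells with Xist only, Rspo4 was 66.2 CPM (61.4 to 71.2) without and 46.1 CPM (42.7 to 49.6) with the deletion, a log2 ratio of -0.48. In cells with Y-linked UMIs only, it was 53.0 CPM (50.0 to 56.1) and 200.3 CPM (192 to 209), a log2 ratio of 1.82. Dkk1 was lower in the deletion library in both cell sets, with 222 and 138 CPM in Xist cells and 194 and 72.3 CPM in Y-linked cells. Sfrp1 was 309 and 310 CPM in Xist cells and 237 and 527 CPM in Y-linked cells. For Rspo4 and Sfrp1, the Y-linked cells of the deletion library stood above the other 3 sets. The make-up of these cell sets differed too. M4 held 266 of 1879 control and 237 of 3576 deletion Xist cells. Of the Y-linked cells it held 190 of 3373 and 710 of 2863. These class values were not adjusted for make-up, and its part was not tested. Whether pup, sex, dissection or genotype accounts for the differences between these sets cannot be told apart with 1 library per group.

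**Figure D3:**
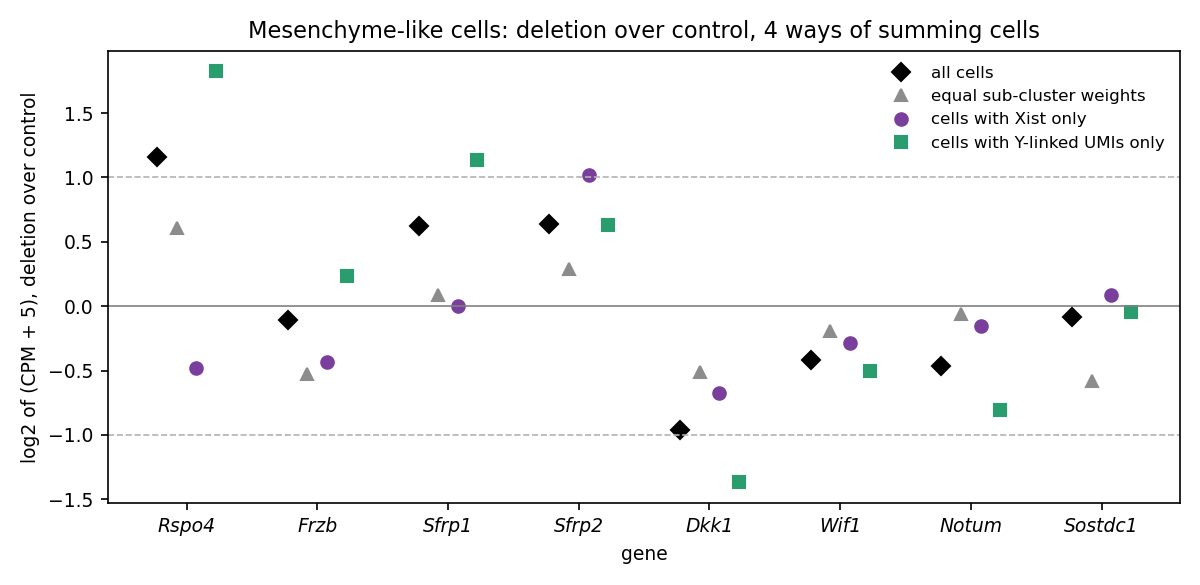
Log2 ratio of CPM + 5, deletion over control, in mesenchyme-like cells for the 8 tested genes, with 4 symbols for all cells, equal sub-cluster weights, cells with Xist only and cells with Y-linked UMIs only. Dashed lines mark a 2-fold difference. Rspo4 runs from -0.48 to 1.82 over these choices, and Dkk1 is below 0 in all 4.

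Within M4, 2 of 7 tested genes were lower and 0 higher, beside 0.31% lower and 0.258% higher among 3873 tested genes. Dkk1 was lower, at 229 CPM (211 to 248, 591 UMIs) in control cells against 75.3 CPM (68.5 to 82.5, 458 UMIs), a log2 ratio of -1.54. Frzb was lower, at 791 CPM (758 to 827) against 367 CPM (352 to 383), a log2 ratio of -1.10. Sostdc1 was just inside the rule with 286 and 147 CPM (-0.93), and Sfrp1 was level with 698 and 688 CPM (-0.02). A Dkk1 UMI was found in 29.3% (25.8 to 33.0%) of thinned control M4 cells and in 10.7% (9.21 to 12.3%) of deletion M4 cells. In odontoblast-like cells Dkk1 differed far less, with log2 ratios of -0.26 in M0 and -0.25 in M1. The summed level of the 8 papilla markers in M4 was 1263 and 906 CPM, and that of 10 dissociation-linked genes 6762 and 7078 CPM. Their part in the result was not tested.
Among M4 cells, 266 control and 237 deletion cells had Xist only, and 190 and 710 had Y-linked UMIs only. Dkk1 in the Xist cells was 269 CPM (237 to 304) without and 287 CPM (249 to 328) with the deletion, a log2 ratio of 0.09. In the Y-linked cells it was 184 CPM (156 to 216) and 33.8 CPM (27.0 to 41.7), a log2 ratio of -2.29. So 3 of these 4 sets lay between 184 and 287 CPM, and the Y-linked cells of the deletion library stood apart below them. Frzb was lower in the deletion library within each set, with 993 and 691 CPM in Xist cells (-0.52) and 646 and 318 CPM in Y-linked cells (-1.01). Here the control Y-linked cells lay below the deletion Xist cells, so that the 2 libraries overlapped. Sostdc1 was 274 and 201 CPM in Xist cells and 289 and 135 CPM in Y-linked cells, without overlap between the libraries.

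**Figure D4:**
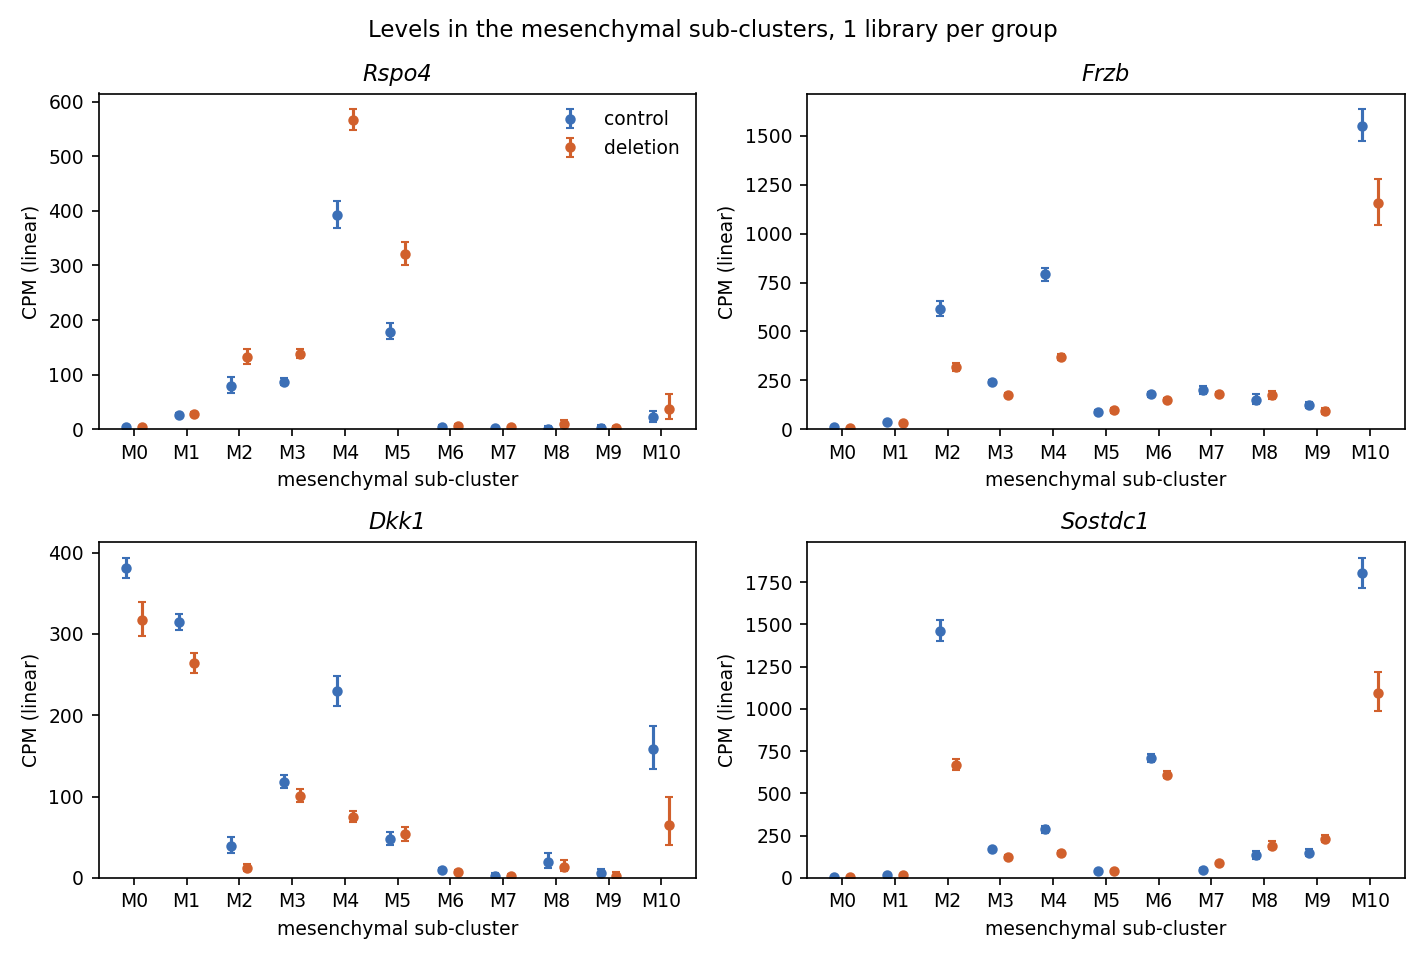
CPM (linear axis from 0) of Rspo4, Frzb, Dkk1 and Sostdc1 in the 11 mesenchymal sub-clusters, with points for the control and deletion libraries and bars for 95% Poisson intervals, which cover counting error only. Frzb in M4 (791 and 367 CPM), Sostdc1 in M2 (1463 and 669 CPM) and Dkk1 in M4 (229 and 75.3 CPM) are lower in the deletion library with intervals that do not overlap.

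**Figure D5:**
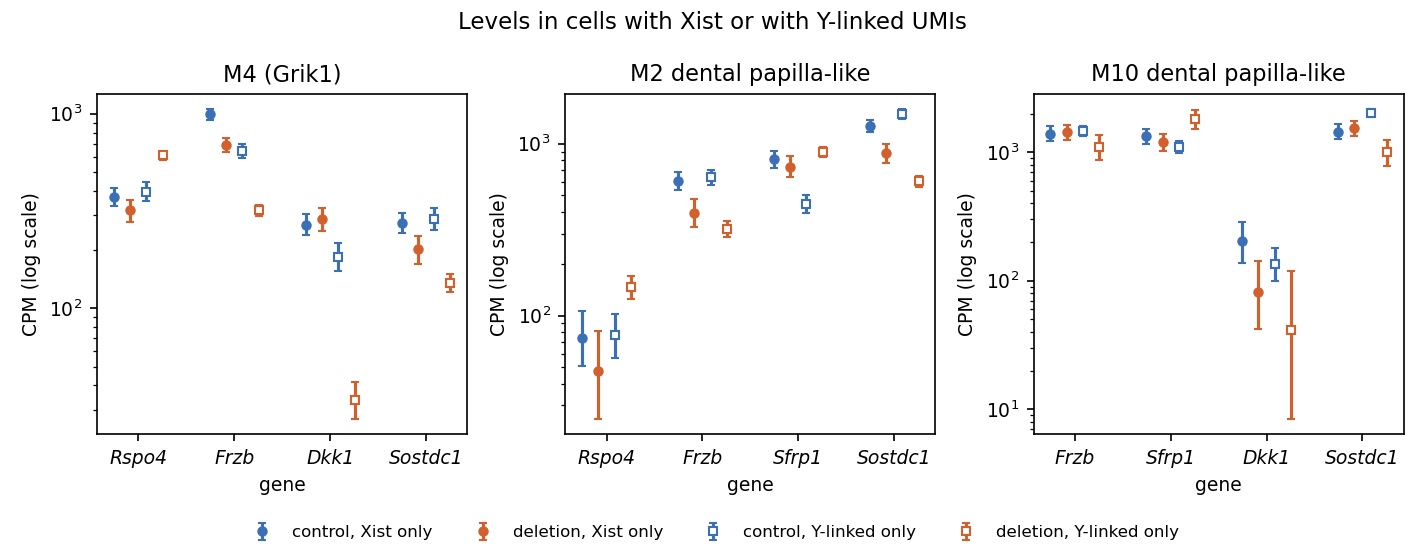
CPM (log axis) of the named genes in M4 (led by Grik1) and papilla-like M2 and M10, with filled circles for cells with Xist only, open squares for cells with Y-linked UMIs only, colours for the library and bars for 95% Poisson intervals. In M4 the Dkk1 level of the deletion Y-linked cells (33.8 CPM) lies below the other 3 sets (184 to 287 CPM), and in M2 both deletion sets of Sostdc1 (880 and 604 CPM) lie below both control sets (1269 and 1493 CPM).

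The papilla-like sub-clusters M2 and M10 repeated parts of this pattern. In M2 (led by Gabrg3, Pappa and Lypd1), 1 of 7 tested genes was lower and 0 higher, beside 0.252% lower and 0.335% higher among 3577 genes. Sostdc1 was at 1463 and 669 CPM, a log2 ratio of -1.12, and Frzb was at 616 and 318 CPM (-0.94). Both genes were lower in each cell set. Sostdc1 was 1269 CPM (1163 to 1382) and 880 CPM (773 to 998) in Xist cells and 1493 CPM (1399 to 1592) and 604 CPM (559 to 652) in Y-linked cells. Frzb was 608 and 396 CPM in Xist cells and 638 and 318 CPM in Y-linked cells. Wif1 in M2 ran in opposite directions, with 567 and 1058 CPM in Xist cells and 1238 and 642 CPM in Y-linked cells.
In M10, with 291 and 135 cells, 1 of 6 tested genes was lower and 0 higher, beside 0.84% lower and 1.54% higher among 4165 genes. Dkk1 was at 159 CPM (134 to 187, 145 UMIs) and 64.6 CPM (40.0 to 98.8, 21 UMIs), a log2 ratio of -1.24. It was lower in both cell sets, from few UMIs (31 and 12 in Xist cells, 48 and 3 in Y-linked cells). In thinned M10 cells the log2 ratio was -2.47. Sostdc1 in M10 was lower in Y-linked cells (2020 and 998 CPM) but not in Xist cells (1447 and 1538 CPM).
In the other mesenchymal sub-clusters, M0, M1, M3, M5, M6, M7, M8 and M9, the log2 ratios of the tested genes of the set lay between -0.43 (Frzb in M3) and 0.83 (Rspo4 in M5). Follicle-like M6 had all 5 of its tested genes slightly below 0 over all its cells, from -0.17 for Sfrp1 to -0.37 for Notum. Their median was -0.21, against -0.01 for all tested genes. Frzb and Sostdc1 did not share this direction in both cell sets of M6. Each was at 0.29 in Xist cells, against -0.49 and -0.39 in Y-linked cells.

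In epithelium-like cells, 2 of the 9 genes were tested and neither passed the rule, beside 0.141% higher and 0.0845% lower among 3550 genes. Sostdc1 was 525 CPM (511 to 539) and 500 CPM (483 to 517), a log2 ratio of -0.07, and Wif1 64.6 and 66.2 CPM, a ratio of 0.03. Sostdc1 was at a log2 ratio of -0.37 in enamel knot-like E3, -0.42 in oral keratinocyte-like E4 and 0.08 in inner enamel epithelium-like E2. It was also lower in E0 (753 and 562 CPM) and stratum intermedium-like E7 (-0.31). In unnamed E8 it was higher, at 143 and 229 CPM (0.66), but the Xist and Y-linked sets of the libraries overlapped. In E6 it was at 1.11, from 11 and 12 UMIs, and not called. Edar itself was 187 and 149 CPM in E3. Edar is among the enamel knot markers used for that name and was not kept out of the clustering. Its level in E3 is therefore not independent of how E3 was drawn and named.
In E3, 1 of 3 tested genes was higher and 0 lower, beside 0.811% higher and 0.445% lower among 3821 genes. Notum stood at 19.6 CPM (19 UMIs) and 65.5 CPM (32 UMIs), a log2 ratio of 1.52. A Notum UMI was found in 2.22% (0.725 to 5.11%) of thinned control cells and 11.7% (6.71 to 18.6%) of deletion cells, against 1.35% and 0.897% of endothelium-like cells. In Xist cells Notum was 42.1 and 62.0 CPM (8 and 16 UMIs), and in Y-linked cells 8.11 and 41.0 CPM (3 and 3 UMIs), with overlapping intervals in both. In the same sub-cluster 5 of 9 tested dissociation-linked genes (early stress genes such as Fos) were higher, with a median log2 ratio of 1.06, and the summed level of the 8 mesenchyme markers was 1206 and 1486 CPM.
In E4, 2 of 3 tested genes were higher and 0 lower, beside 0.767% higher and 1.36% lower among 3519 genes. Sfrp1 stood at 14.4 and 67.1 CPM (11 and 47 UMIs) and Wif1 at 20.9 and 71.4 CPM (16 and 50 UMIs), log2 ratios of 1.90 and 1.56. In Xist cells Sfrp1 was 27.6 and 95.4 CPM and Wif1 69.0 and 121 CPM, and in Y-linked cells Sfrp1 was 12.1 and 66.9 CPM and Wif1 3.03 and 25.1 CPM, from 33 to 85 cells in each set. In thinned cells the Wif1 ratio was 0.80 and not called, and 6.15% and 5.41% of E4 cells held a Wif1 UMI. The summed oral keratinocyte markers of E4 were 11877 and 6227 CPM and the mesenchyme markers 1521 and 1856 CPM. The part of these shifts in the E3 and E4 results was not tested.

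None of the other genes of the pathway, from fixed lists, passed the rule in mesenchyme-like cells. Of the R-spondins and their receptors and regulators, 2 of 9 were tested, and Rspo4 was the 1 that passed the rule, with Lgr4 at 71.6 and 63.9 CPM. None passed among 8 tested of 18 other modulators, 10 tested of 20 receptors and 4 tested of 21 ligands and secretion genes. The same held for 11 tested of 15 feedback and response genes and 12 tested of 17 BMP partners. The median log2 ratios of these lists, in the order given, were 0.06, 0.12, -0.15, -0.10 and 0.10, against 0.08 for all tested genes. Notum, Dkk1 and Wif1 of the set are on the feedback list and enter its count and its median of -0.10. Axin2, a common readout of Wnt signalling, was at 93.5 and 86.5 CPM. Igfbp4 (1468 and 2336 CPM) and Bambi (409 and 274 CPM), the highest on the list of other modulators, had log2 ratios of 0.67 and -0.57. The ligand genes Wnt6 (130.0 and 77.0 CPM) and Wnt10a (101 and 60.7 CPM) were lower by less than 2-fold. The make-up of the class also enters these values, and its part was not tested.
Within sub-clusters, and apart from the 9 genes, the lists held 10 calls, 7 lower and 3 higher. Ccn2 (95.9 and 40.8 CPM) and the Wnt feedback gene Nkd2 (61.2 and 24.6 CPM) were lower in M2. In M9, where 0.587% of 3407 tested genes were lower and 0.352% higher, Dkk2 (373 and 159 CPM), Apcdd1 (157 and 57.4 CPM) and Nkd2 (69.8 and 25.3 CPM) were lower. Lgr4 was lower in E3 (54 and 12 UMIs). In E4 Bmp7 was lower (44 and 12 UMIs) and Smad7 higher (25 and 51 UMIs). Fzd1 was higher in E5 (8 and 15 UMIs), where 1.44% of tested genes were higher and 1.85% lower. Fzd3 was higher in E6 (8 and 12 UMIs), where 2.94% were higher and 2.19% lower. The list of 10 dissociation-linked genes, such as Fos and Hspa1a, had a median log2 ratio of 0.50 in mesenchyme and 0.81 in epithelium, where Fos and Hspa1a passed the rule. In E5 9 of 9 tested genes of this list were higher, with a median log2 ratio of 1.70. In E7 4 of 6 and in E8 4 of 10 were higher. The part of this list in the differences above was not tested.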

How the data were processed

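Molar germs of 1 control and 1 deletion library were measured. The deposited matrices hold raw UMI counts per gene and cell barcode, which the authors made with STARsolo on mm10, per the submitters' processing notes. Version, annotation and strand setting: not given in the sources used here. In all, the libraries held 73375441 and 62158879 UMIs in 13990 and 16029 barcodes, and 4 barcodes were in both. Cells with at least 500 genes and at most 20% mitochondrial UMIs were kept, and 178 and 240 doublets called by scrublet were removed. Cells were clustered with scanpy 1.11.5 (Python 3.11.15, igraph 0.11.9) on 2000 variable genes without the 9 genes, ribosomal, mitochondrial, haemoglobin and sex-linked transcripts, using 30 components, 15 neighbours and Leiden resolution 1. Epithelium and mesenchyme were then re-clustered at 0.6. The rule that turned marker scores into names was set after the data were seen.

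CPM is a gene's UMIs scaled to 1e+06 UMIs of the same cells, with a 95% Poisson interval. Ratios are log2 of CPM + 5, with a 95% binomial interval on the count ratio (scipy 1.17.1), and both intervals cover counting error only. A gene was called where it had at least 50 CPM in 1 library, CPM + 5 differed at least 2-fold and the interval excluded 1. Shares are from cells thinned to 2000 UMIs (1066 control and 2037 deletion cells were shallower and left out), with Clopper-Pearson intervals. A count of 0 allows 3 counts. The ratio calculation was tested on simulated data. Named genes were the 9, the 3 genes most like each in profile, the highest genes of each list, Edar and the 3 leading genes of each sub-cluster. The 9 genes, the lists and the markers were chosen with earlier results of these data known. Alternatives were a pseudocount of 1, a stricter cell filter, no minimum level, a 1.5-fold rule, doublets kept, thinning, equal sub-cluster weights and finer sub-clusters, and, added after the data were seen, the largest piece of each sub-cluster at the finer resolution and the Xist and Y-linked cells.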

Additional observations from a re-analysis of the deposited data

Results flagged for a closer look

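A number of ratios ran in opposite directions in cells with Xist UMIs only and in cells with Y-linked UMIs only, which come from different pups. Each is given because the count-ratio intervals of the 2 cell sets lay on opposite sides of 1, and the difference itself was not tested. Values are log2 ratios of deletion over control, the Xist cells first.

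Over all mesenchyme-like cells, whose make-up also differed between the cell sets, Rspo4 was at -0.48 and 1.82 and Frzb at -0.43 and 0.23. In cycling M3, Sfrp1 was at -1.05 and 1.21 and Wif1 at 0.10 and -0.27. In M4, Sfrp1 was at -0.79 and 0.44. In papilla-like M2, Wif1 was at 0.89 and -0.94. In follicle-like M6, Frzb was at 0.29 and -0.49 and Sostdc1 at 0.29 and -0.39. In follicle-like M7, Sfrp2 was at -0.84 and 1.14, and in M8 at -0.39 and 0.76. In odontoblast-like M0, Wif1 was at -0.37 and 0.23. In epithelium-like cells, Sostdc1 was at 0.17 and -0.15.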

How the results depend on the processing

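No paired analysis was possible because each group was 1 library. Over all mesenchyme-like cells the rule called 8 genes higher and 8 lower. Lowering the pseudocount to 1 CPM gave 15 and 13, dropping the minimum level 16 and 16. It called 133 and 84 with a 1.5-fold rule, and 0 and 0 with equal sub-cluster weights. Of the set, 1 was higher and 0 lower in the main analysis. A 1.5-fold rule gave 3 higher and 1 lower, equal weights 0 higher, and the stricter cell filter 1 lower (Dkk1, log2 ratio -1.02). In epithelium-like cells, 5 genes were higher and 3 lower. A 1.5-fold rule gave 18 and 14, equal weights 3 and 5, and there were 5 lower with a pseudocount of 1 CPM, 5 with the stricter filter and 17 with no minimum level.

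The sub-cluster with the highest level changed for Sostdc1 in the deletion library alone (E5, 1313 CPM). With the 9 genes kept among the clustering genes, each gene's highest sub-cluster held mostly the same cells. M4 kept no name there or at resolution 1, and M1 none at resolution 1. At resolution 1 the highest levels were 1167 CPM for Frzb, 1376 CPM for Sfrp1, 1307 CPM for Wif1 and 1388 CPM for Sostdc1. Of 86 ratios of the set, 86 stayed within the counting interval of the main value with a pseudocount of 1 CPM and 86 with doublets kept, 76 with the stricter filter and 61 after thinning. That count was 25 in the Xist cells and 34 in the Y-linked cells. In the largest piece of each sub-cluster at resolution 1 it was 33 of 59 ratios. With equal sub-cluster weights it was 0 of 10. The sign differed from the main value for 3 of those 59 and for 0 of those 10. The sign differed from the main value for 29 of the 86 in the Xist cells and for 14 in the Y-linked cells. Among the 8 ratios past the rule it differed for 2 in the Xist cells, Rspo4 in mesenchyme-like cells (-0.48) and Dkk1 in M4 (log2 ratio 0.0907), and for 0 in the Y-linked cells, and the cause was not tested. Sostdc1 in M4 and Frzb in M2 (-1.02) passed the rule under the stricter filter, and Wif1 in E4 (0.80) did not after thinning. Adding unnamed clusters with mesenchymal collagens gave no value, since none qualified. Few cells stand behind the epithelial sub-cluster values, with 87 and 62 in E5. A single library per group limits all values.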
